A study of Mus musculus with 4 samples.

Results

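The 10 genes described here encode enzymes that add sugars to Notch receptors (Lfng, Mfng, Rfng, Pofut1, Poglut1), regulators that limit or redirect Notch signalling (Nrarp, Numb, Dtx2, Dtx4) and the DNA-binding partner of the activated receptor (Rbpj). They were taken by name from a table of 55267 gene entries, and each name matched 1 entry. RNA-seq was run on cultured mouse MuSCs (muscle stem cells, from which adult muscle is rebuilt after injury) to ask which transcripts respond rapidly to BMP6, a secreted bone morphogenetic protein. There were 2 libraries from cells given 100 ng/mL BMP6 for 1 h and 2 control libraries from cells given its vehicle, 4 mM HCl with 0.1% BSA. Cells of both groups came from skeletal muscle of female mice aged 9 weeks with the genotype C57BL/6N(Tg(Pax7-EGFP)Tajb), were grown at 3% O2, and were sorted by the EGFP reporter that the Pax7 transgene drives. Before stimulation, cells of both groups spent 6 h in serum-free medium with 200 ng/mL of the soluble receptor BMPR-1A-Fc, which captures BMPs. The labels do not say how many animals entered a culture, and the reporter was sorted before further culture, so it marks the cells of origin rather than the state at harvest.

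Notch receptors are activated by ligands on neighbouring cells, and the strength of that contact depends on sugars attached to the receptor's EGF-like repeats. POFUT1 adds the first fucose, POGLUT1 adds glucose, and the fringe enzymes extend the fucose. Depending on the enzyme, this can shift the preference of the receptor between Delta-like and Jagged ligands. The freed intracellular domain joins RBPJ on DNA and switches on targets that include feedback inhibitors, and in MuSCs this pathway is known for holding back differentiation.

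Depth was alike in the 4 libraries: each held 108 to 112 times 1000000 reads, rebuilt from coverage, and listed 13002 to 13203 entries at 1 TPM or more (TPM scales reads to transcript length and to the same total in each library). Id1, a classical BMP target, stood at 584 and 513 TPM in the BMP6 libraries and at 90.5 and 129 TPM in the controls, replicate 1 first as in all pairs of values (log2 fold change 2.33, SE 0.17, limma adjusted p = 0.0164). All 7 myogenic markers examined had a mean of at least 1 TPM. Pax7, the marker of the sort, stood at 8.29 to 11.7 TPM, Myog, which marks entry into differentiation, at 4400 to 5472 TPM, and Myf5, Myod1, Des, Cdh15 and Itga7 between 111 and 1120 TPM. After BMP6, 5 of the 7 were lower in both pairs, against 25.7% of all tested entries, and Pax7 and Myod1 were higher in both. None of the 7 passed the adjusted p in the main test, and Des, which encodes a muscle intermediate filament protein, did so with the replicate as a block (log2 fold change -0.24, limma adjusted p = 0.0312). The part of these markers in the values below was not tested. Among markers of other cells, the 4 endothelial genes reached at most 0.143 TPM with Kdr at 0, the 4 immune genes reached at most 1.68 TPM (Cd68) and the 3 pericyte or smooth muscle genes at most 4.93 TPM (Pdgfrb). The 6 fibroblast genes summed to 406 and 291 TPM after BMP6 and to 403 and 330 TPM in the controls, led by Col1a2, with Pdgfra at 0.164 TPM or less. In bulk RNA, fewer cells of a type and less RNA per cell cannot be told apart.

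In brief, Lfng was higher after BMP6 in both pairs of same-numbered libraries but sat below 1 TPM, Nrarp was higher by a smaller factor, and the other 8 genes differed less or not in the same direction in both pairs. TPM is scaled to transcript length, so levels can be set side by side. By mean TPM the order was Rfng, Poglut1, Dtx4, Rbpj, Dtx2, Numb, Nrarp, Pofut1, Mfng and Lfng. Over the 4 libraries the values of neighbours in this order overlapped for Rbpj with Dtx2 and for Mfng with Lfng, and did not overlap for the other neighbours.

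**Figure D1:**
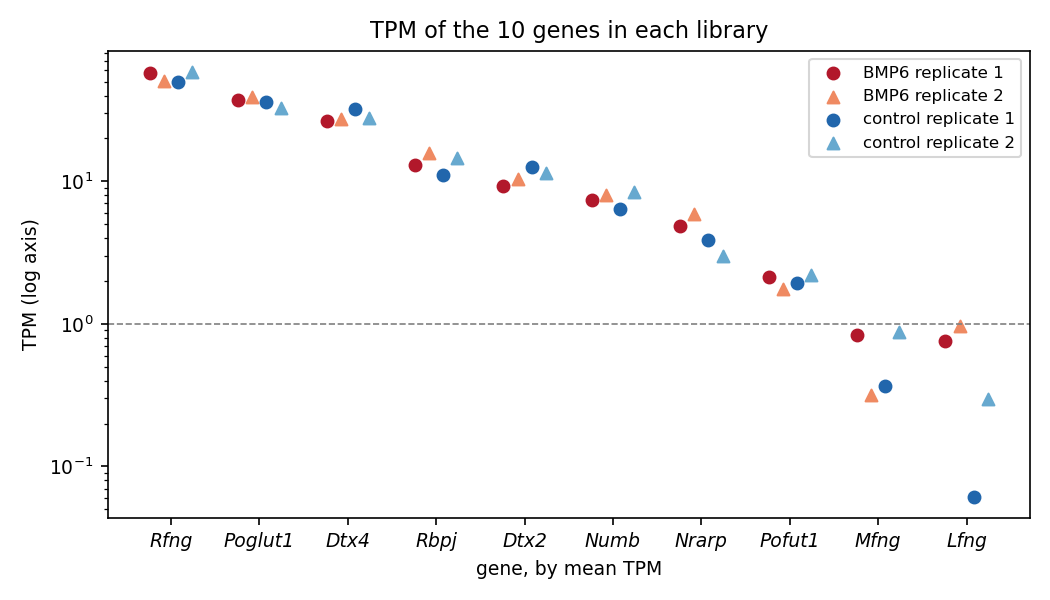
Level of each gene in each library (TPM, log axis), with genes ordered by mean TPM, circles for replicate 1, triangles for replicate 2, red shades for BMP6 and blue shades for control, and a dashed line at 1 TPM. The 4 points of a gene lie close together except for Mfng and Lfng, and for Lfng both BMP6 points lie above both control points.

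Of the 10 genes, 8 had a mean of at least 1 TPM over all libraries and entered the main test, limma on log2(TPM + 1) across 13128 entries. None passed an adjusted p under 0.1, which 0.244% of all tested entries did, and so none was called with a fold change of at least 2 as well, as 0.206% were. At an unadjusted p under 0.05 there was 1 gene, Nrarp, against 3.2% of all entries. With the replicate number as a block, none of the 8 passed the adjusted p either, against 1.64% of all entries. At an unadjusted p under 0.05 there were then 2, Nrarp and Dtx2, against 12.9% of all entries. The voom test on rebuilt reads, without a block, also gave 0 of the 8, against 0.175% of all entries. The median log2 fold change of the 8 genes was 0.04, beside 0.02 over all tested entries. Without regard to sign, the median was 0.150 for the 8 genes and 0.088 over all tested entries. Direction was the same in both pairs for 6 of the 10 genes, close to the 57.7% of all entries with a mean of at least 0.1 TPM. The groups did not overlap for 5 of the 10 genes, against 29.6% of those entries. In 3 genes (Lfng, Poglut1 and Nrarp) both BMP6 libraries were above both controls, against 16.5% of entries, and in 2 (Dtx2 and Dtx4) both were below, against 13.1%. With 2 libraries a group and both directions counted, a permutation of the group labels cannot give a share below 0.333.

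**Figure D2:**
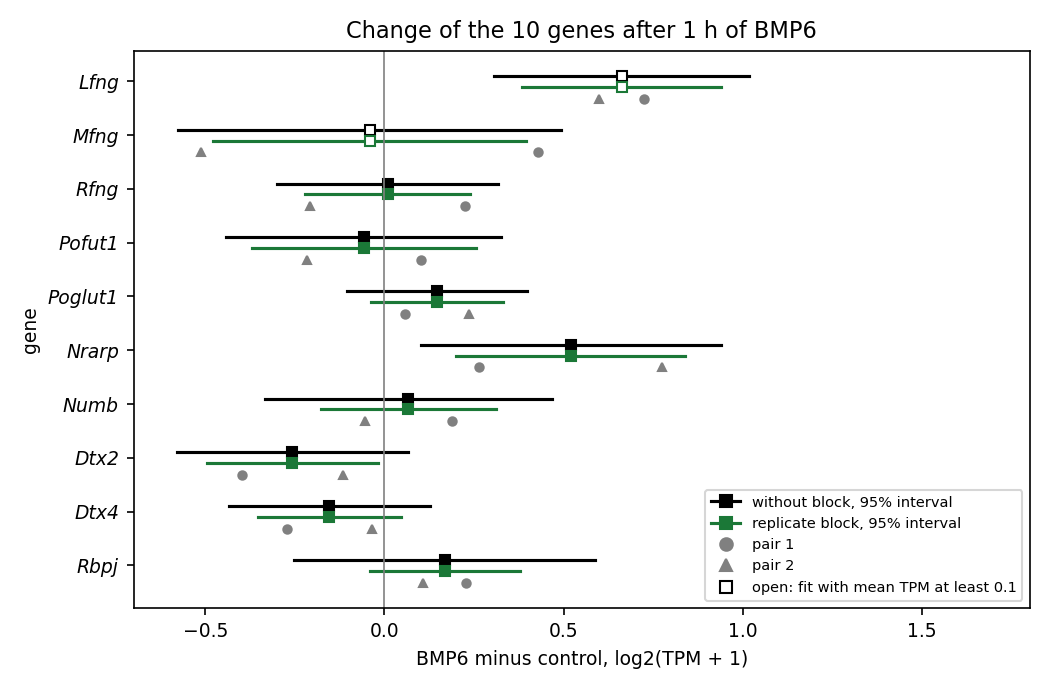
Change of each gene after BMP6 as BMP6 minus control on the log2(TPM + 1) scale, with squares and lines for the limma estimate and its 95% interval without (black) and with (green) the replicate block, and grey symbols for the differences within pair 1 (circle) and pair 2 (triangle). Open squares mark Lfng and Mfng, which entered the fit at a mean of at least 0.1 TPM, and of all 10 genes the intervals of Lfng and Nrarp lie above 0 in both fits.

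The fringe enzymes differed widely in level. Lfng (chr5:140593075-140601300, plus strand, GRCm39) encodes Lunatic fringe, which extends the fucose that POFUT1 adds. Its level was 0.753 and 0.969 TPM after BMP6 and 0.0615 and 0.299 TPM in the controls of the same numbers. Both BMP6 libraries were above both controls, and the groups did not overlap. Within pairs the level was 12.3 and 3.24 times that of the control. These levels rest on 108.8 and 134.1 rebuilt reads after BMP6 and on 9.0 and 42.5 in the controls. With a mean of 0.521 TPM, Lfng was below the filter of the main test. In the fit of 19629 entries with a mean of at least 0.1 TPM, its log2 fold change was 0.66 (SE 0.15, limma adjusted p = 0.723), where 0.138% of entries passed, and with the replicate block the adjusted p was 0.0490 (SE 0.12), where 1.19% did. That fold change was below the 2-fold threshold, on a scale that understates changes of genes with low TPM, so Lfng was not called in either fit. With voom on rebuilt reads and the block, an alternative added after the data had been seen, the log2 fold change was 2.31 (SE 0.52, limma adjusted p = 0.106).

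The Lfng signal was spread over the gene. The files hold 1 Lfng transcript with 8 exons, and in all 8 the mean coverage, in aligned bases per base, was higher in both BMP6 libraries than in both controls. Exon coverage ran from 2.16 to 7.93 and from 3.62 to 11 in BMP6 replicates 1 and 2, and from 0.0698 to 2.24 and from 1.08 to 4.84 in control replicates 1 and 2. Exons of a transcript share read pairs and are not separate measurements. Named genes were also ranked by Euclidean distance to Lfng in log2(TPM + 1) over the 4 libraries. Names that start with Gm and a digit, Mir or ENSMUSG, or end in Rik, were left out. The 5 nearest were Snord94 (0.163), Lor (0.228), Sh3d21 (0.254), Zxdb (0.267) and Zxda (0.275). By this measure their values must lie near those of Lfng, and the highest was 1.00 TPM.

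**Figure D3:**
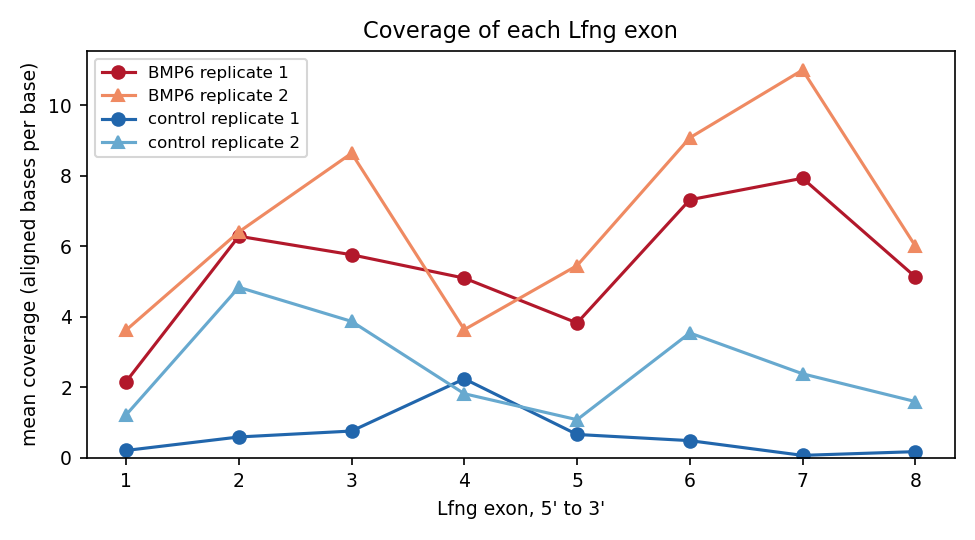
Mean coverage (aligned bases per base) of the 8 Lfng exons in each library, from the 5' to the 3' end, with circles for replicate 1 and triangles for replicate 2. Both BMP6 lines lie above both control lines at every exon, and control replicate 1 stays at or below 2.24.

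The 300 bases around the Lfng start (250 before, 50 after) were searched on both strands for GGCGCC, a GC-rich element that SMADs of the BMP branch can bind, and for TGGGAA, the core of the RBPJ site. These windows are shown because Lfng had the largest within-pair ratios of the 10 genes. Lfng held no GGCGCC and held TGGGAA at 2 places, once on each strand. The capitals mark the match, and TTCCCA is TGGGAA read on the opposite strand.
Lfng, chr5:140592949-140592978, plus strand: ccagctgggtggTTCCCAgccccttgtccg
Lfng, chr5:140592976-140593005, plus strand: ccgtatcccacgTGGGAAggagagatctcc
The matches begin 114 and 87 bases before the start. The bases just before the second one make it CGTGGGAA, a longer form of the site that was searched after the short matches had been seen and overlaps them. CGTGGGAA was in 0.945% of 13126 windows of tested entries, TGTGGGAA in 1.49%, TGGGAA in 23.1% and GGCGCC in 19.8%. Of the 10 genes, 5 held TGGGAA (Lfng, Mfng, Poglut1, Dtx2 and Rbpj), 2 held GGCGCC (Rfng and Dtx4), and Lfng alone held CGTGGGAA. The Nrarp window held none of these. A match is a string of letters, and binding was not measured here. No other SMAD element was searched, so a window without GGCGCC does not show an absence of SMAD binding. The paper reports, from a separate binding assay, that SMAD binding around Lfng differed between BMP6-treated and control cells.

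Mfng (chr15:78640082-78657675, minus strand) encodes Manic fringe, an enzyme with the same activity as Lunatic fringe. It was at 0.836 and 0.315 TPM after BMP6 and at 0.365 and 0.875 TPM in the controls. The groups overlapped and the pairs moved in opposite directions, with ratios of 2.29 and 0.360. Mfng was also below the main filter, and in the fit with a mean of at least 0.1 TPM its log2 fold change was -0.04 (SE 0.22, limma adjusted p = 1.00). Rfng (chr11:120671574-120675033, minus strand) encodes Radical fringe, the third enzyme of the family. It was at 57.9 and 50.6 TPM after BMP6 and at 49.4 and 58.5 TPM in the controls, so it was the most abundant of the 10 genes in every library. The groups overlapped, with a log2 fold change of 0.01 and a 95% interval of -0.30 to 0.32. The mean Rfng level in controls was 54.0 ± 6.43 TPM (SD, n = 2), against 0.180 ± 0.168 TPM for Lfng and 0.620 ± 0.361 TPM for Mfng.

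The enzymes that add the first sugar showed little change. Pofut1 (chr2:153083453-153112167, plus strand) encodes the O-fucosyltransferase on whose product all fringe enzymes act. It was at 2.15 and 1.74 TPM after BMP6 and at 1.93 and 2.19 TPM in the controls. The groups overlapped, and the log2 fold change was -0.06 with an interval of -0.44 to 0.33. Poglut1 (chr16:38345499-38370620, minus strand) encodes the O-glucosyltransferase of the EGF-like repeats. It was at 37.4 and 38.9 TPM after BMP6 and at 35.9 and 32.9 TPM in the controls. Both BMP6 libraries were above both controls, but by little, with ratios of 1.04 and 1.18 in the pairs and a log2 fold change of 0.15 (SE 0.10, interval -0.10 to 0.40). Among GENCODE M39 transcripts, Gm56613 aligned to the Poglut1 transcript over 922 bases at 99.9% identity, in the opposite orientation. These unstranded libraries cannot separate the reads of such pairs.

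Nrarp (chr2:25070770-25073351, plus strand) is a single-exon Notch target whose product binds the RBPJ complex and dampens its output. It was at 4.85 and 5.87 TPM after BMP6 and at 3.87 and 3.02 TPM in the controls. Both BMP6 libraries were above both controls, with ratios of 1.25 and 1.95 in the pairs. The log2 fold change was 0.52 (SE 0.17, interval 0.10 to 0.94), the largest of the 8 tested members, with an unadjusted p of 0.0229 and a limma adjusted p of 1.00 across all entries. With the replicate block the estimate was the same, with an SE of 0.14 and an adjusted p of 0.176. Rebuilt reads were 784.4 and 910.7 after BMP6 and 637.4 and 479.8 in the controls. The antisense entry Gm38287 shares 2051 exonic bases with Nrarp and was listed at 0 TPM in all libraries, although without strand its reads could not be told from those of Nrarp.

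Numb (chr12:83840808-83968708, minus strand) encodes an adaptor that directs Notch receptors to endocytosis and is passed unequally to daughter cells in dividing progenitors. It was at 7.44 and 8.07 TPM after BMP6 and at 6.41 and 8.41 TPM in the controls. The groups overlapped, with a log2 fold change of 0.07 (SE 0.16, interval -0.33 to 0.47). Known Numb proteins differ by an insert in the phosphotyrosine-binding domain and by one in the proline-rich region, each encoded by an alternative exon. The first of these exons has 33 bases, lies at chr12:83872033-83872065 on the minus strand, and is shown whole, in capitals, because its coverage and the transcript values disagree.
Numb, exon of the domain insert: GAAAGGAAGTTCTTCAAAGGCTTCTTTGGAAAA
The transcript ENSMUST00000117217.8, which held 97.0% of the Numb TPM on average, lacks this exon. Its coverage was nonetheless 52.1% and 51.5% of the mean of the exons beside it after BMP6, and 31.4% and 44.7% in the controls, on 7.54, 9.08, 3.76 and 8.56 rebuilt reads. The exon of the proline-rich region, of 147 bases at chr12:83843971-83844117, had 1.26% and 1.05% of the coverage of its neighbours after BMP6 and 1.65% and 1.15% in the controls. So the exon of the proline-rich region was almost uncovered in every library, whereas that of the domain insert was covered in all 4, and its share was not tested between groups. Among GENCODE M39 transcripts, Papln aligned to the Numb transcript over 2138 bases at 99.8% identity, in the opposite orientation.

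Both Deltex genes among the 10 had lower values after BMP6, and neither passed the adjusted p. Dtx2 (chr5:136023654-136061726, plus strand) encodes a ubiquitin ligase of the Deltex family, which binds the intracellular part of Notch. It was at 9.33 and 10.4 TPM after BMP6 and at 12.6 and 11.4 TPM in the controls. Both BMP6 libraries were below both controls, with ratios of 0.740 and 0.916, and the log2 fold change was -0.26 (SE 0.13, interval -0.58 to 0.07). With the block the interval was -0.49 to -0.02 and the limma adjusted p was 0.355. Of the 4 Dtx2 transcripts in the files, ENSMUST00000005072.10 was at 1.34 and 5.57 TPM in BMP6 replicate 1 and control replicate 1 and at 0 in both libraries of replicate 2. Dtx4 (chr19:12443702-12478818, minus strand) encodes another Deltex ligase. It was at 26.5 and 27.2 TPM after BMP6 and at 32.2 and 27.9 TPM in the controls. Both BMP6 libraries were again below both controls, but in pair 2 the ratio was 0.975, and the log2 fold change was -0.15 (SE 0.11, interval -0.44 to 0.13).

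Rbpj (chr5:53713176-53814704, plus strand) encodes the factor that carries the Notch intracellular domain to DNA. It was at 13.1 and 15.7 TPM after BMP6 and at 11.05 and 14.5 TPM in the controls. It was higher in both pairs, by ratios of 1.19 and 1.08, but the groups overlapped, since BMP6 replicate 1 lay below control replicate 2. The log2 fold change was 0.17 (SE 0.17, interval -0.25 to 0.59). The processed pseudogene Rbpj-ps3 matches the Rbpj transcript over 1441 bases at 99.7% identity and was listed at 6.54 to 7.90 TPM, and the authors' counting did not divide reads between such copies. Reads of Rbpj and Rbpj-ps3 are therefore uncertain.

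Nearly all Rbpj signal was assigned to a pair of transcripts that share 10 of their 11 exons and differ in the first. Each first exon carries its own annotated start codon, so the encoded proteins differ at their N-terminus. The junctions with the shared next exon (chr5:53784725-53784763) are shown because reads over them separate the transcripts, with the last 15 bases of the first exon in capitals and the first 15 of the shared exon in lower case.
ENSMUST00000037618.13, first exon chr5:53747556-53747828: TGCTCCATCGGCGGGgaagtttggtgagcg
ENSMUST00000113865.5, first exon chr5:53747813-53748066: GCCTGTTGTGACAGGgaagtttggtgagcg
The transcript from the upstream first exon was at 11.5 and 12.4 TPM after BMP6 and at 2.67 and 2.56 TPM in the controls. The transcript from the downstream first exon was at 1.60 and 3.24 TPM after BMP6 and at 7.52 and 11.8 TPM in the controls. Neither pair of groups overlapped, and the directions were opposite. Across 19346 transcripts with a mean of at least 1 TPM, the log2 fold change of the upstream form was 1.84 (SE 0.15, limma adjusted p = 0.120, and 0.445 with the replicate block) and that of the downstream form was -1.65 (SE 0.36, limma adjusted p = 0.607). Neither passed, where 0.0672% of transcripts did.

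The coverage of the first exons did not follow these transcript values. Coverage of the upstream first exon was 2.08 and 1.77 after BMP6 and 1.24 and 0.746 in the controls, a ratio of group means of 1.94 where the transcript TPM gave 4.57. Coverage of the downstream first exon was 3.97 and 8.11 after BMP6 and 6.18 and 3.91 in the controls, a ratio of 1.20 where the transcript TPM gave 0.251. Of the first-exon coverage of the pair, the upstream exon held 34.4% and 17.9% after BMP6 and 16.7% and 16.0% in the controls, whereas it held 87.8% and 79.3% and then 26.2% and 17.8% of their TPM. These exons rest on 2.04 to 20.6 rebuilt reads a library, so the reads that separate the transcripts are few, and the source of the discrepancy was not tested.

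**Figure D4:**
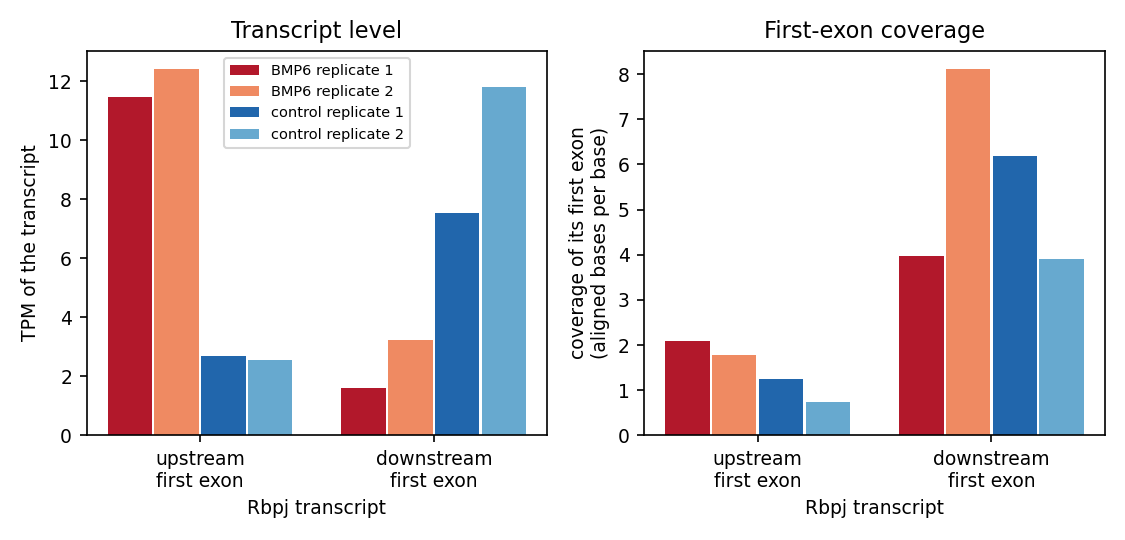
The pair of Rbpj transcripts in each library, as TPM of the whole transcript (left) and mean coverage of its first exon in aligned bases per base (right), with bars starting at 0. The upstream form lies at 2.56 to 2.67 TPM in controls and at 11.5 to 12.4 TPM after BMP6, while its first-exon coverage lies between 0.746 and 2.08 in all 4 libraries.

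The rest of the pathway was read from a list of 54 other Notch genes, of which 52 have an entry of their own and 39 were tested. Of these, 27 had a positive and 12 a negative estimate, with a median log2 fold change of 0.09 beside 0.02 over all tested entries. The effector Hey1 alone passed the adjusted p in the main fit, which 0.244% of all tested entries did. Hey1, a transcriptional repressor of the Hes and Hey family, was at 85.3 and 81.3 TPM after BMP6 and at 36.7 and 28.1 TPM in the controls (log2 fold change 1.35, SE 0.14, limma adjusted p = 0.0523). With the replicate block, where 1.64% of all tested entries passed, Hes6, a member of the same family, also did. Hes6 was at 1372 and 1707 TPM after BMP6 and 1004 and 1258 TPM in the controls (log2 fold change 0.45, limma adjusted p = 0.000565). All 4 tested Hes and Hey effectors were higher in both pairs, but only Hey1 passed in the main fit. Of all entries with a mean of at least 0.1 TPM, 57.7% moved the same way in both pairs, up or down. That share counts both directions and includes entries below the main filter. The share that was higher in both pairs is therefore smaller than 57.7% of those entries. Hes1 was at 154 and 109 TPM after BMP6 and at 102 and 98.2 TPM in the controls.

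No receptor, ligand, protease or nuclear partner passed in either fit. The largest estimates were 0.27 for Notch1 and 0.13 for Notch2 among 3 receptors, and 0.33 for Jag1 and 0.28 for Jag2 among 3 ligands. Among 9 genes of receptor cleavage (FURIN, which cuts the precursor, the ADAM proteases and the subunits of gamma-secretase) they were 0.20 for Aph1b and 0.20 for Adam10. Among 7 nuclear partners they were -0.19 for Maml1, a coactivator of RBPJ, and 0.15 for Kdm5a. Of 6 other glycosylation enzymes, B4galt1, which adds galactose to fringe-extended sugars, had 0.34 and Gxylt1, which adds xylose to O-glucose, had 0.28. Of 7 other turnover regulators, the ubiquitin ligases Itch and Fbxw7 had 0.20 and -0.20. These values are log2 fold changes of the main fit, and none of these genes passed the adjusted p.

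**Figure D5:**
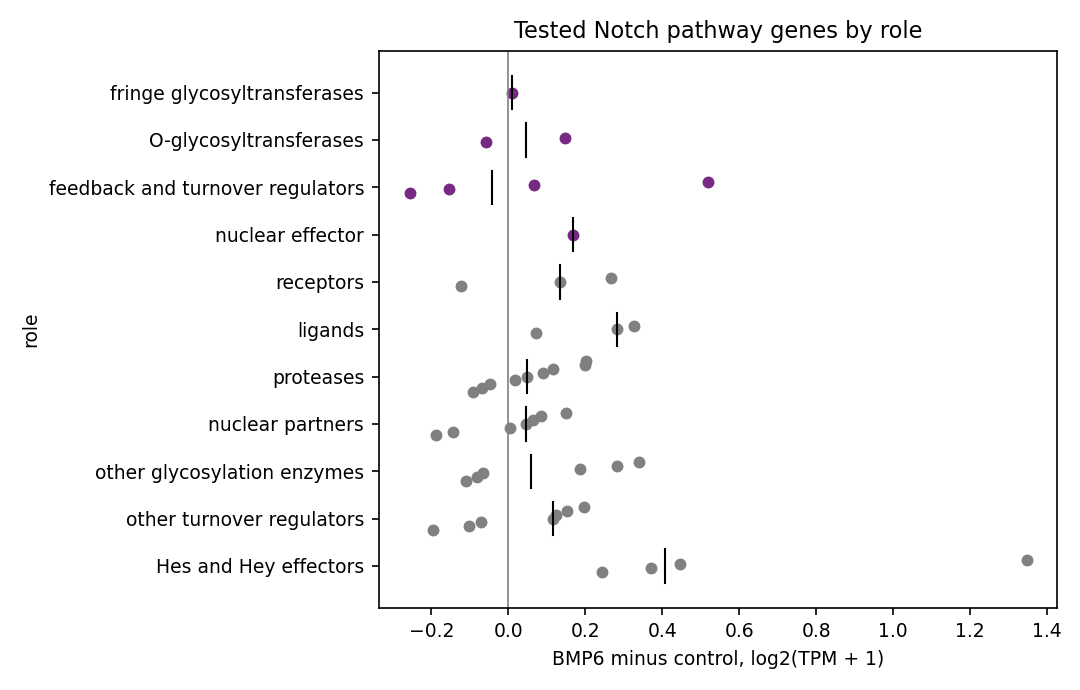
Log2 fold change (BMP6 minus control, log2(TPM + 1)) of each tested gene by role, with the described genes in purple, other Notch genes in grey and a black bar at the median of the role. Hey1 stands apart at 1.35, and the purple points lie between -0.26 and 0.52.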

How the data were processed

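PolyA RNA was made into unstranded Smart-seq2 libraries without molecular identifiers. The authors aligned reads with STAR 2.7.11a to GRCm39 and quantified them against a merged annotation with StringTie 2.2.1, with its correction for multiply aligned reads switched off. The authors deposited TPM and FPKM per gene in joined tables and, per library, TPM and coverage (a signal, the mean depth of aligned bases) per transcript and exon. Depth per library is given as reads rebuilt here as coverage times length divided by 100, which count aligned bases of both read ends, not molecules.

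The values were compared with limma 3.58.1 in R 4.3.3 (lmFit, then eBayes with a trend, two-sided) after a log2(TPM + 1) transformation and with no block, over 13128 entries with a mean of at least 1 TPM, with Benjamini-Hochberg adjustment. Called genes had an adjusted p under 0.1 with at least a 2-fold difference in either direction. All named and unnamed entries stayed in the counts, whereas the study left out some kinds of names. The replicate number is a batch in the labels and joins each BMP6 library to a control library, so same-numbered libraries were treated as pairs. Their deviations from the group means correlated at 0.563 across genes, which are not independent. The labels call the replicates biological. The limma fit, with and without the block, was tested on simulated data that held no replicate effect. The members, the lists and the rules were chosen with earlier results of these data known. All 10 members are described. Other Notch genes are named when past the adjusted p in either fit or among the 2 largest changes of their role, and Hes1 is named in addition to these. Poglut2 and Numbl sit in entries named for Tex30 and Coq8b and were not tested. Copies were sought with blastn 2.17.0 in GENCODE M39 transcripts (at least 100 bases at 95% identity), and sequences were read from the GRCm39 genome at the files' coordinates. Alternatives were other filters, pseudocounts, scalings, FPKM, voom, the block and leaving out each library. The exon comparisons of Lfng, Numb and Rbpj and the motif search were chosen after values had been seen.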

Additional observations from a re-analysis of the deposited data

How the results depend on the processing

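The number of genes called among all entries was 27 in the main fit and 43 with the replicate block. It was 16 with a mean of at least 5 TPM, 2 with no filter, 16 with a pseudocount of 5, 14 without a trend, 45 with the block and a mean of at least 0.1 TPM, 76 with voom and the block, and 89 with voom, the block and a mean of at least 0.1 TPM (an alternative chosen after the data had been seen). Leaving out each library in turn gave 23 to 39. The number past the adjusted p was 0 of the 8 genes tested in the main fit, which left out Lfng and Mfng, and 1 of 10, Lfng, in the replicate block with a mean of at least 0.1 TPM, which changes the filter as well as the block. It was 0 of 10 in 3 other alternatives with a lower or no filter, 0 of the 8 in 12 and 0 of 6 at a mean of at least 5 TPM, and the block changed no call among the 8. Nrarp kept a positive estimate in all its 16 alternatives, from 0.30 to 0.66 (adjusted p 0.166 to 1.00). Dtx2 (-0.33 to -0.18) and Dtx4 (-0.25 to -0.05) stayed negative and Poglut1 (0.08 to 0.21) positive in 17 alternatives each. Rfng turned negative with FPKM (-0.016), with voom (-0.0065), and with voom and the block at either filter (-0.0062). Leaving out each library gave log2 fold changes of -0.11 to 0.13 for Rfng, -0.16 to 0.042 for Pofut1, -0.11 to 0.24 for Numb and -0.014 to 0.35 for Rbpj. For Dtx2 transcripts they ran from -0.24 to 0.41 (ENSMUST00000111142.9), -0.59 to 0.53 (ENSMUST00000111145.10) and -2.10 to 0.61 (ENSMUST00000005072.10). The causes were not tested. For genes below the main filter, leaving out each library in the fit with a mean of at least 0.1 TPM, also chosen after the data had been seen, gave 0.52 to 0.81 for Lfng and -0.28 to 0.20 for Mfng, which turned positive without BMP6 replicate 2 (0.20) and without control replicate 2 (0.19). Depth limits statements on Lfng, Mfng and the first exons of Rbpj, which rest on few reads.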
